A study of Mus musculus with 59 samples.

Results

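Sphingolipids are membrane lipids built on a long-chain base, and ceramide stands at the branch point of their metabolism. Serine palmitoyltransferase, whose core subunits are the products of Sptlc1 and Sptlc2, starts the pathway in the endoplasmic reticulum by joining serine to palmitoyl-CoA, and Degs1 encodes the desaturase that makes ceramide from dihydroceramide. Ceramide is then turned into sphingomyelin by the sphingomyelin synthases of Sgms1 (Golgi) and Sgms2 (Golgi and plasma membrane), or into glucosylceramide, the root of most glycosphingolipids, by the glucosyltransferase of Ugcg. In the lysosome the acid sphingomyelinase of Smpd1 returns sphingomyelin to ceramide, and the acid ceramidase of Asah1 splits ceramide into sphingosine and a fatty acid.

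These 8 genes were followed through 59 Affymetrix arrays of liver, bone marrow and spleen from B6C3F1 mice, a hybrid strain. Their probe sets are all those that the platform annotation gives exactly 1 gene symbol, one of the 8: 22 probe sets, of 34945 with exactly 1 symbol, for 8 of 18193 genes. There are 4 probe sets for Sptlc1, 3 for Sptlc2, 2 for Degs1, 4 for Sgms1, 2 for Sgms2, 4 for Ugcg, 2 for Smpd1 and 1 for Asah1. The set of genes was selected on a view of expression results of these same arrays, and which values weighed is not recorded. The 6 comparisons of baclofen with vehicle are therefore treated as used in that choice. Their values are given below as a description with adjusted p-values as a scale, and support nothing beyond these samples.

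Baclofen activates GABA-B receptors. The mice received baclofen or the vehicle, 0.5% methylcellulose, once (1 day) or daily on 5 days (5 day), and tissue was taken 2 h after the last dose. The labels give no dose, age or sex. In liver the groups hold 4 baclofen and 3 vehicle samples at 1 day, and 8 baclofen and 4 vehicle samples at 5 days. In bone marrow, and again in spleen, they hold 4 baclofen and 4 vehicle samples at 1 day, and 8 baclofen and 4 vehicle samples at 5 days. Marrow came from a humerus, liver from the left lateral lobe and spleen from a cross-section, so each array is the RNA of a mixed tissue. The labels of 5 of the 7 1-day livers contradict themselves: the source entry names one treatment, title and treatment entry the other. Title and treatment entry are followed here. Fewer cells of a type and less RNA per cell cannot be told apart in such samples.

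Values below are log2 of the deposited signal intensity unless a fold is named, and a difference is baclofen minus vehicle on that scale with its standard error (SE). A gene is called changed when its 2-sided p from limma, Benjamini-Hochberg adjusted over all 10916 genes tested in a tissue, was under 0.05. All 8 genes were tested in liver and marrow. In spleen 7 were, because Sgms2 lay below the brightness filter there. The array medians of intensity were 34.7 to 36.8 in liver, 72.6 to 76.1 in marrow and 74.3 to 77.6 in spleen. The tissues thus appear to have been normalized apart, and no level is tested between them. Hepatocyte genes averaged 14.5 to 14.6 in every liver group and 5.56 to 7.55 in the marrow and spleen groups, and B cell genes averaged 11.5 to 11.8 in spleen. In 4 libraries transcripts of another tissue stood out, liver genes in vehicle spleens 1 and 3 and baclofen spleen 5 at 5 days, and skeletal muscle genes in baclofen marrow 3 at 1 day.

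The start regions of Sgms1, Ugcg and Degs1, which stand for sphingomyelin, glucosylceramide and ceramide synthesis and were each called in at least 1 comparison, are shown with the sequence motifs found in them. RefSeq (GRCm38.p6) gives 15 promoter windows, each of 250 bases before and 50 after a transcript start, for 7 of the genes: 4 for Sgms1, 6 for Sgms2 and 1 for each of the others. Asah1 (chromosome 8, 41340646 to 41397644) is named only. The letters are printed 5′ to 3′ on the strand of the gene, with the E-box CACGTG and the GC box GGGCGG, on either strand, in capitals. The first 2 lines are the separate upstream starts of Sgms1 (gene span chr19:32122727-32389885), at chr19:32388463-32388762 and chr19:32388000-32388299 on the minus strand. The next is Ugcg (gene span chr4:59189507-59222833) at chr4:59189300-59189599 on the plus strand, and the last is Degs1 (gene span chr1:182275964-182282854) at chr1:182282146-182282445 on the minus strand. The Sgms1 and Degs1 windows lie wholly inside the gene spans, so the outermost 5′ ends of those spans have no window.
Sgms1 start 1: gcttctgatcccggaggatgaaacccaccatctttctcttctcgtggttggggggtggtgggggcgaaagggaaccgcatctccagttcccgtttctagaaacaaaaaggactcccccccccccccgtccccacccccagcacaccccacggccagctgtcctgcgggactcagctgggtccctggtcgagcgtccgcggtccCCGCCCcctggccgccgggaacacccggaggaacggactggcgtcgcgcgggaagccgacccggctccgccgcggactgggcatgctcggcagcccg
Sgms1 start 2: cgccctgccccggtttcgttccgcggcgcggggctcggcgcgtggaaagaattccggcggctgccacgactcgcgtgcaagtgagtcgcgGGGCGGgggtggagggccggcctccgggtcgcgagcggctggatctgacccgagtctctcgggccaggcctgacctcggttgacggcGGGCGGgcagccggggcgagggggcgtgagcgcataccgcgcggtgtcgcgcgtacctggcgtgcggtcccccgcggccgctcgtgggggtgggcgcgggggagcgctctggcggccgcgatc
Ugcg start: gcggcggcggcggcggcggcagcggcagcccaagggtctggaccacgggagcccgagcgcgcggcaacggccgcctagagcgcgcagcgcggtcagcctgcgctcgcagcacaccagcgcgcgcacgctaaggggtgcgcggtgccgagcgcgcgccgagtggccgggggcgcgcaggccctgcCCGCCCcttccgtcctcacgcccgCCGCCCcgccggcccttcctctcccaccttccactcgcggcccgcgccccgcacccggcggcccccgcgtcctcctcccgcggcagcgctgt
Degs1 start: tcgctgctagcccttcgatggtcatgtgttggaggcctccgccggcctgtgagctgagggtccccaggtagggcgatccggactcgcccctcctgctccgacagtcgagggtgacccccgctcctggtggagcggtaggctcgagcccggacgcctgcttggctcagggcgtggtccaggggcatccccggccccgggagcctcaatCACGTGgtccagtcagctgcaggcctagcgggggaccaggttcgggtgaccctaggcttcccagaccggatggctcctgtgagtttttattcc
The Ugcg window had a G+C content of 81.3%, the first and second Sgms1 windows 69.3% and 77.3%, and the Degs1 window 67.3%, against a median of 52.7% over all 32851 windows of the same length. The other Sgms1 windows, further inside the gene, had 46.0% and 53.0%. GGGCGG was present in 9 of the 15 windows and in 35.7% of all windows. CACGTG was present in 2 of 15, those of Degs1 and 1 start of Sgms2, and in 7.15% of all windows. TGTTCT, one side of the glucocorticoid response element, was in 1 window, of Sgms2, and in 19.0% of all windows. CCAAT was in 6 of 15 windows and 37.4% of all. The palindrome TGACGTCA (1.79% of all windows) was found in none of the 15. Both strands were searched, and CACGTG and GGGCGG do not overlap in the windows shown.

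Sgms1 was the member with most calls: it was higher under baclofen in all 6 comparisons, by 1.19-fold to 1.60-fold. In each comparison 1 or 2 of the tested members were called. In liver at 1 day 1 of 8 rose (Sgms1) and 1 fell (Ugcg), where 2.67% of all genes tested were called, 1.58% higher and 1.09% lower. At 5 days 1 rose (Sgms1) and 1 fell (Sptlc2), where 10.6% were called, 4.86% higher and 5.75% lower. In marrow at 1 day 1 of 8 rose (Sgms1) and 1 fell (Degs1), where 7.36% of genes were called, 3.11% higher and 4.25% lower. At 5 days 1 rose (Sgms1) and 1 fell (Sgms2), where 10.1% were called, 6.15% higher and 3.93% lower. In spleen Sgms1 was the 1 of 7 called at both times, where 15.5% of genes were called at 1 day (7.64% higher, 7.91% lower) and 4.43% at 5 days (3.05% higher, 1.38% lower). The median difference of the tested members was -0.03 and 0.12 in liver at 1 and 5 days, 0.05 and -0.06 in marrow, and -0.04 and 0.02 in spleen. Over all genes tested the medians were -0.01, -0.02, 0.00, 0.00, -0.03 and 0.00 in that order. Nothing is read from these counts, since the comparisons were known when the genes were chosen. Sptlc1, Smpd1 and Asah1 were called in none of the 6. Genes called higher in all 6 comparisons numbered 8 of the 9045 tested in all 3 tissues (0.0884%): Sgms1, Ddit4, Dusp1, Mlxip, Per1, Pnpla2, Sgk1 and Txnip, the other 7 named after their values were seen.

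**Figure D1:**
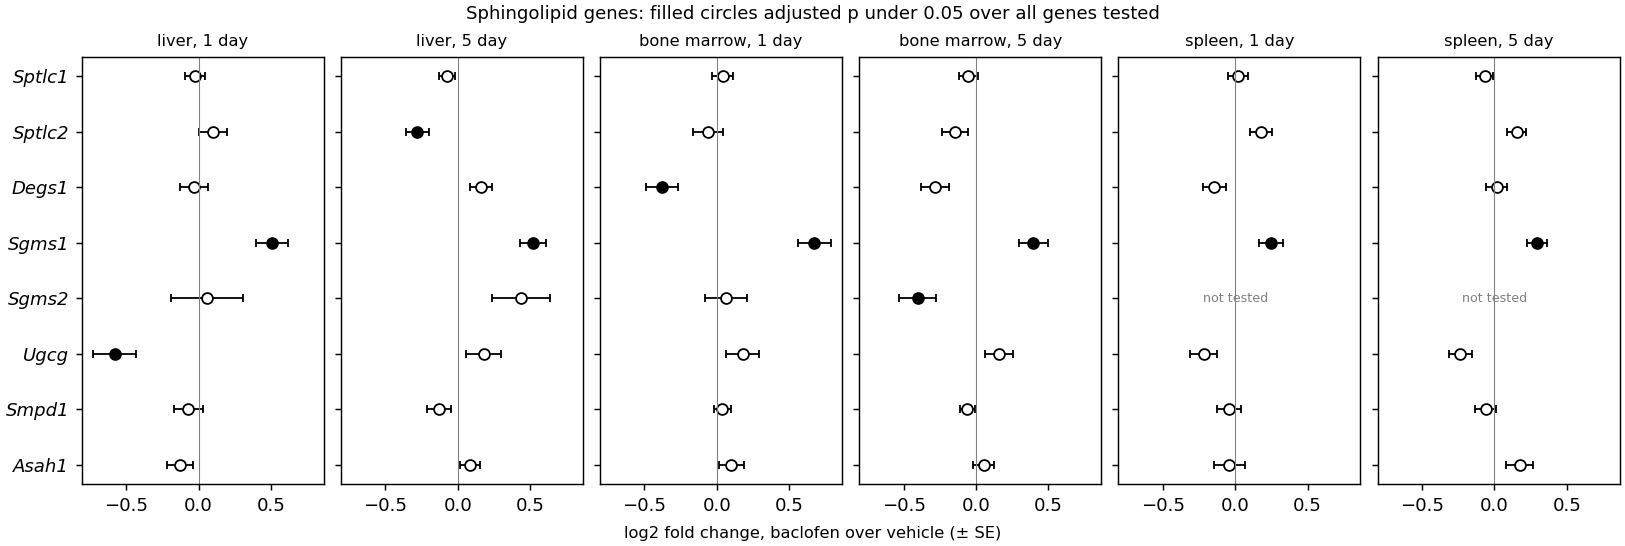
Log2 fold change of baclofen over vehicle (x axis, ± SE) for the 8 genes (rows) in each tissue and time (panels); filled circles have an adjusted p under 0.05 over all genes tested. Sgms1 lies to the right of 0 with a filled circle in all 6 panels, while the filled circles of Ugcg, Sptlc2, Degs1 and Sgms2 lie to the left of 0 in 1 panel each.

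Sgms1, the Golgi sphingomyelin synthase, was represented in each tissue by its brightest probe set, 1436499_at. In liver at 1 day it read 7.65, 7.75, 7.89 and 8.10 in the baclofen samples, against 7.36, 7.27 and 7.39 in the vehicle samples. The groups did not overlap. It was 1.42-fold higher, a log2 difference of 0.51 ± 0.11 (SE, adjusted p = 0.0168 by limma). At 5 days the 8 baclofen livers ran from 7.62 to 8.01 with a median of 7.74, against 7.15, 7.49, 7.26 and 7.05 in the vehicle livers. Again every baclofen value stood above every vehicle value, and the difference was 0.52 ± 0.09 (adjusted p = 0.00162 by limma).

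The largest of the 6 Sgms1 differences was in bone marrow after 1 dose. The probe set read 9.36, 9.63, 9.69 and 9.59 in baclofen marrow, against 8.52, 9.15, 8.95 and 8.96 in vehicle marrow, without overlap. That is a 1.60-fold higher signal and a log2 difference of 0.67 ± 0.11 (adjusted p = 0.00200 by limma). After 5 doses the baclofen marrows ran from 8.91 to 9.49 with a median of 9.18, against 8.74, 8.78, 8.76 and 8.83 in vehicle. The lowest baclofen value stayed above the highest vehicle value, and the difference was 0.39 ± 0.10 (adjusted p = 0.0191 by limma). The vehicle values at 5 days lay within a narrow span, with an SD of 0.04 (n = 4). In the same comparison 9 of 10 erythroid genes were called higher, with a median difference of 0.44, and 1 of 10 macrophage genes, and their part in the Sgms1 value was not tested.

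In spleen the Sgms1 differences were the smallest. At 1 day it read 9.65, 9.53, 9.42 and 9.60 in baclofen spleens, against 9.11, 9.42, 9.42 and 9.25 in vehicle spleens, and the lowest baclofen sample lay at the height of the upper vehicle samples. The difference was 0.25 ± 0.08 (adjusted p = 0.0443 by limma). At 5 days the baclofen spleens ran from 9.30 to 9.58 with a median of 9.48, against 9.22, 9.10, 9.17 and 9.14 in vehicle, without overlap. The difference was 0.29 ± 0.07 (adjusted p = 0.0233 by limma). Without the 3 spleens that carried liver transcripts it was 0.35 at 5 days and no longer called (adjusted p = 0.0599 by limma), with 7 baclofen and 2 vehicle samples, and at 1 day, where no sample was left out but the shared spread changed, the adjusted p was 0.0517.

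**Figure D2:**
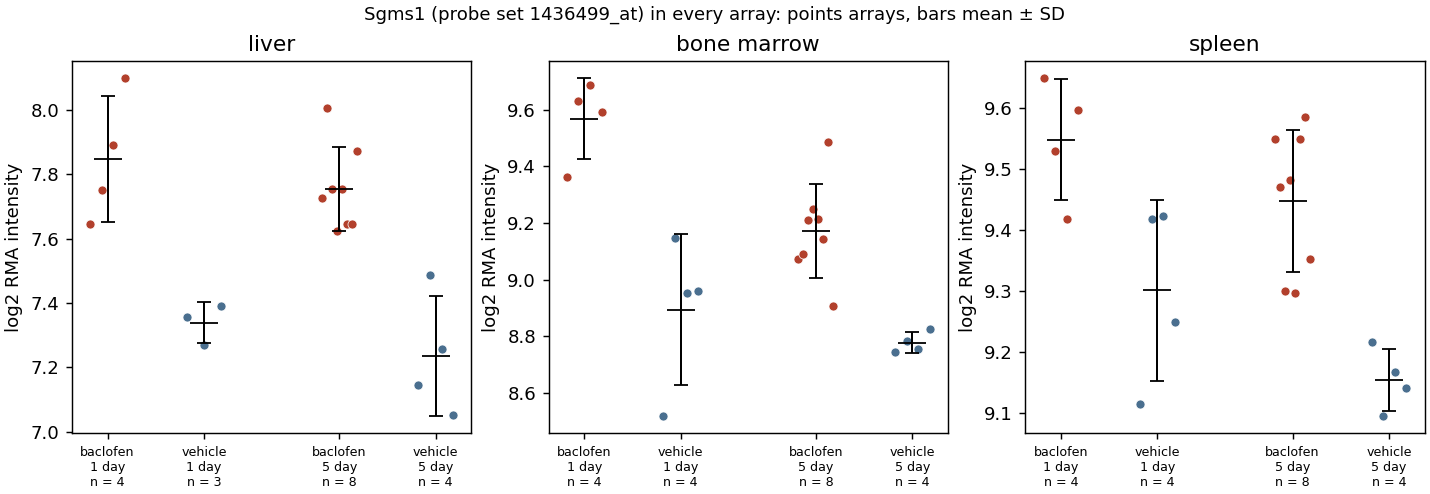
Log2 intensity of Sgms1 (probe set 1436499_at, y axis) in each array, with baclofen left of vehicle at 1 day and at 5 days in liver, bone marrow and spleen; points are arrays and bars the mean ± SD. The baclofen points stand above all vehicle points in 5 of the 6 pairs of groups and overlap with them in spleen at 1 day.

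Leaving out single samples removed several of these calls but never turned a direction. In liver at 1 day the Sgms1 call was lost without vehicle liver 1 (adjusted p = 0.0562 by limma), vehicle liver 2 (0.101) or baclofen liver 4 (0.0607). In marrow at 5 days it was lost without vehicle sample 1 (0.0679) or 3 (0.0561), and in spleen at 5 days without vehicle sample 2 (0.0969). In spleen at 1 day it was lost without vehicle sample 1 (0.151) or 4 (0.101) or baclofen sample 1 (0.130), 2 (0.0699) or 4 (0.107). The calls in liver at 5 days and marrow at 1 day held whichever sample was left out. Other settings also ended Sgms1 calls. In liver at 1 day the call was lost with only the groups compared in the fit (0.51, adjusted p = 0.0585 by limma) and with the mean of its probe sets (0.31, adjusted p = 0.0610). In spleen at 5 days it was lost with the mean of probe sets (0.12, adjusted p = 0.220) and with RNA quality as covariate (0.28, adjusted p = 0.0512), and in spleen at 1 day with no filter, the mean of probe sets, median centring or only the groups compared (adjusted p = 0.0504 to 0.130). With the 1-day livers grouped by the source field, Sgms1 differed by -0.34 and Ugcg by 0.15, neither called (adjusted p = 0.9999 by limma).

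The 4 Sgms1 probe sets did not read alike. With every probe set tested apart, 3 of 4 were called higher in marrow at 1 day, where 6.34% of all probe sets were called, and in liver at 5 days, where 9.13% were. All 4 were called in marrow at 5 days (7.34% of all probe sets), and 1 of 4, 1436499_at, in liver at 1 day (2.65%) and in spleen at 1 day (14.5%) and 5 days (4.56%). In marrow at 1 day 1426576_at read 9.43 to 9.56 in the baclofen samples, against 8.18 to 9.10 in vehicle, a difference of 0.75 ± 0.13. Its partner 1426575_at read 8.75 to 8.95 in baclofen marrow, against 8.03 to 8.47 in vehicle, a difference of 0.59 ± 0.10. Both also stood wholly above vehicle in liver at 1 and 5 days and in marrow at 5 days. In spleen at 5 days, by contrast, they differed by 0.02 ± 0.08 and 0.06 ± 0.09, while 1436499_at differed by 0.29. The dimmer liver probe set 1442079_at differed by 0.03 ± 0.08 and -0.06 ± 0.07 in liver at 1 and 5 days. The files do not give the probes' positions in the transcript.

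**Figure D3:**
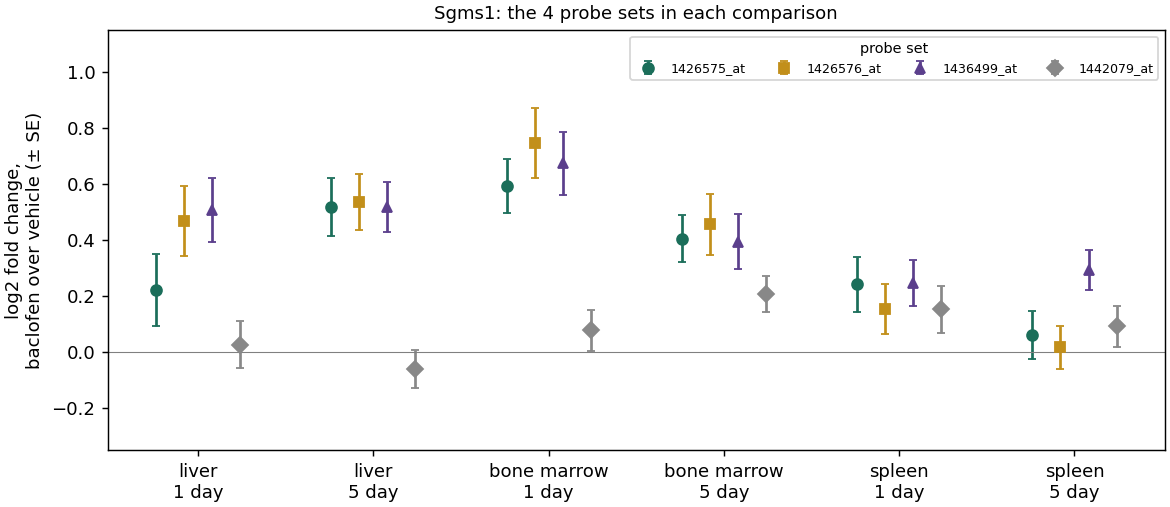
Log2 fold change of baclofen over vehicle (y axis, ± SE) for the 4 Sgms1 probe sets in each tissue and time (x axis), from a fit of all probe sets with no brightness filter. In liver at 5 days and marrow at 1 day 3 probe sets lie together between 0.52 and 0.75 with 1442079_at near 0, and in spleen at 5 days only 1436499_at stands away from 0.

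Sgms2, the sphingomyelin synthase also found at the plasma membrane, did not follow Sgms1. In marrow at 5 days its brighter probe set 1428663_at read 10.04 to 10.61 with a median of 10.37 in the baclofen samples, against 10.98, 10.69, 10.51 and 10.76 in vehicle. The ranges overlapped, and the difference was -0.40 ± 0.13 (adjusted p = 0.0478 by limma). The dimmer probe set 1429029_at read 7.16 to 7.74 in baclofen marrow, against 7.92, 7.89, 7.84 and 7.84 in vehicle, without overlap. It fell by 0.44 on the log2 scale (SE 0.10, adjusted p = 0.0181 with every probe set tested apart by limma). At 1 day the 2 marrow probe sets differed by 0.06 ± 0.14 and -0.04 ± 0.12 and were not called. Leaving out any 1 of the 12 marrow samples of that time, except baclofen samples 1, 4 and 8, raised the adjusted p of the first probe set above the threshold, to 0.195 at most, without vehicle sample 1. With RNA quality as covariate the difference was -0.38 and not called (adjusted p = 0.0927 by limma); that measure, the 3′ minus the 5′ control probe sets, was 0.02 to 0.15 in baclofen marrow at 5 days and 0.03 to 0.05 in vehicle. The erythroid genes called higher there had group means of 11.9 in baclofen and 11.5 in vehicle. Mature neutrophil genes averaged 13.6 in baclofen and 13.8 in vehicle, with 1 of 9 called lower. Whether either has a part in the Sgms2 value was not tested.

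In liver Sgms2 was variable. At 5 days it read 8.79 to 9.74 with a median of 9.13 in the baclofen samples, against 9.40, 8.00, 8.48 and 9.03 in vehicle, and the difference was 0.44 ± 0.20 (adjusted p = 0.170 by limma). Without vehicle liver 1, the highest of its group, it was 0.66 and called (adjusted p = 0.0375). At 1 day the difference was 0.06 ± 0.25. The second probe set, 1429029_at, differed by 0.03 ± 0.12 at 5 days.

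In spleen Sgms2 was dim, with a mean of 5.15 over 20 arrays against a lowest tested gene mean of 6.31, and was not among the genes tested. Its values there were 4.63, 4.78, 4.57 and 4.89 in baclofen spleens at 1 day, against 6.26, 6.37, 5.06 and 5.60 in vehicle spleens, without overlap. A fit with no brightness filter gave a difference of -1.11 ± 0.26 (adjusted p = 0.0114 by limma). The other probe set, 1429029_at, differed by -0.19 ± 0.10 in the same spleens, with overlap, and was not called (adjusted p = 0.270 in a fit of all probe sets by limma). At 5 days, by 1428663_at, the baclofen spleens ran from 4.28 to 5.35 with a median of 5.07, against 5.31, 5.54, 5.73 and 4.78 in vehicle, with overlap. The mean of 9 mature neutrophil genes moved alongside: it was 9.52, 9.24, 9.21 and 9.35 in baclofen spleens at 1 day, against 11.1, 10.9, 9.40 and 10.3 in vehicle spleens. Of these 9 genes 2 were called lower at 1 day, with a median difference of -1.13, and 0 at 5 days, with a median of -0.47. Other lists moved in the 1-day spleens too. Erythroid genes had a median difference of -0.54 with 0 called, T cell genes 0.39 with 0 called, and B cell genes 0.21 with 1 called higher. The part of neutrophil RNA, or of the other cells, in the Sgms2 difference was not tested. Sgms2 averaged 10.5 over the marrow arrays, where the mature neutrophil genes averaged 13.6 to 13.8, and 9.07 over the liver arrays, where they averaged 5.20.

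**Figure D4:**
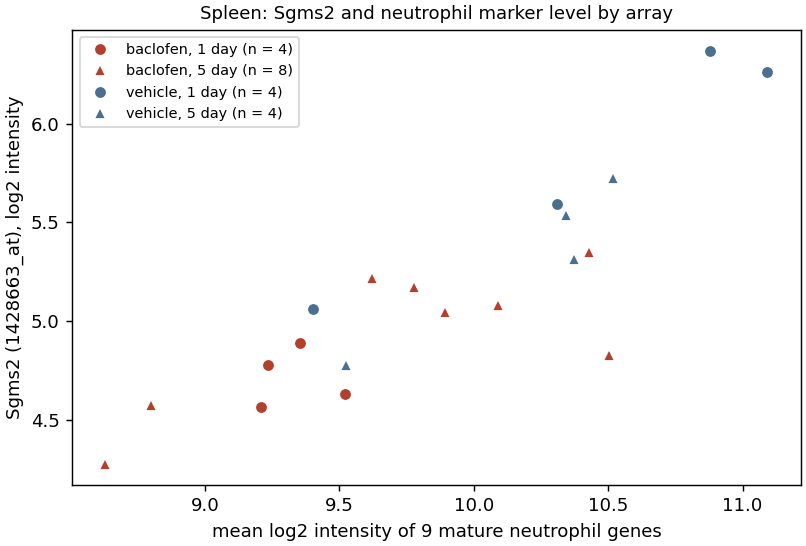
Each point is 1 spleen array, with the mean log2 intensity of 9 mature neutrophil genes on the x axis and the log2 intensity of Sgms2 (1428663_at) on the y axis; red marks baclofen and blue vehicle, circles 1 day and triangles 5 days. The 4 baclofen arrays at 1 day lie low on both axes, and the 2 highest Sgms2 values, 6.26 and 6.37, are vehicle arrays at 1 day with the highest neutrophil level.

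Ugcg, which sends ceramide to glycosphingolipids, was lower under baclofen in liver after 1 dose. Probe set 1421268_at read 6.67, 6.91, 7.01 and 6.74 in the baclofen livers, against 7.41, 7.52 and 7.31 in the vehicle livers, without overlap. The log2 difference was -0.58 ± 0.15 (adjusted p = 0.0447 by limma). The probe set 1421269_at read 4.73, 5.30, 5.46 and 5.16 in baclofen, against 6.06, 6.04 and 5.77 in vehicle, and differed by -0.80 ± 0.21. The next, 1435133_at, read 5.53, 5.55, 5.19 and 5.68 in baclofen, against 6.25, 6.21 and 5.76 in vehicle, and differed by -0.58 ± 0.22. All 3 separated the groups, and the fourth, 1439863_at, was dim in liver at 3.28 to 3.97. How many of all probe sets separated these small groups was not counted. With every probe set tested apart 2 of the 3 were called lower, where 2.65% of all probe sets were called. In a fit of all probe sets with no filter none was, and 1435133_at had an adjusted p of 0.26 by limma. The call of 1421268_at was lost without any single liver of that time except baclofen liver 3, with an adjusted p of 0.0708 to 0.198.

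After 5 doses Ugcg in liver was not below vehicle. The baclofen livers ran from 7.30 to 8.24 with a median of 7.53, against 7.36, 7.39, 7.43 and 7.53 in vehicle, and the difference was 0.18 ± 0.12 (adjusted p = 0.363 by limma). The change of the baclofen difference between the times, 5 day minus 1 day, was 0.76 ± 0.19. It was not called (adjusted p = 0.229 by limma), in a comparison where 0.0183% of all genes were. Vehicle livers at 5 days and at 1 day differed by 0.01 ± 0.15.

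**Figure D5:**
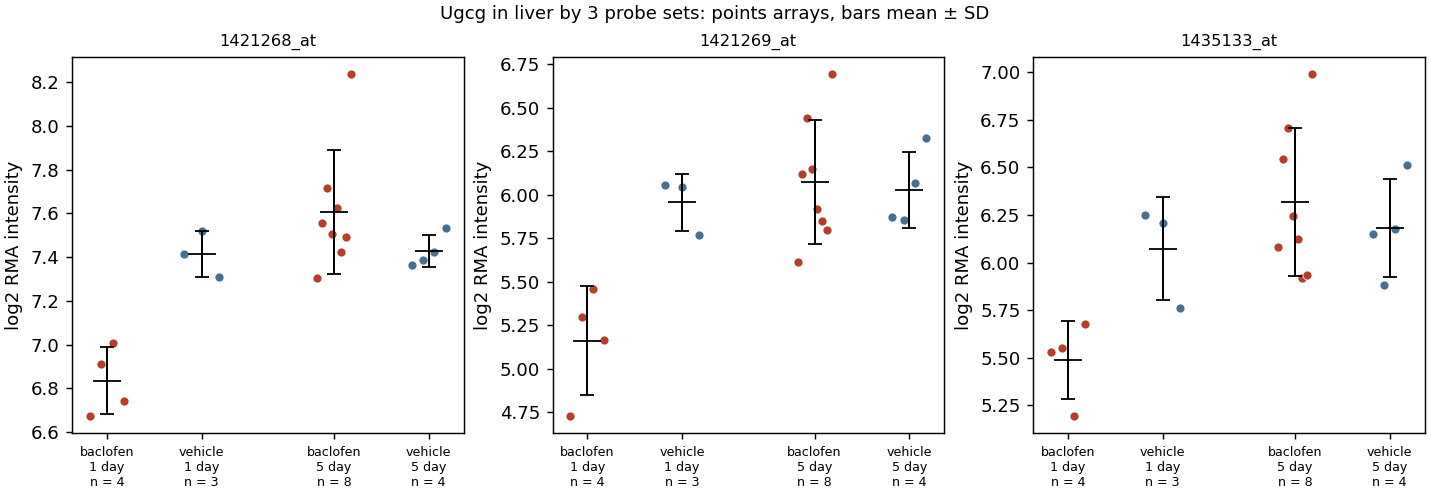
Log2 intensity of Ugcg in liver (y axis) by 3 probe sets (panels), with baclofen left of vehicle at 1 day and at 5 days; points are arrays and bars the mean ± SD. At 1 day the 4 baclofen points lie below the 3 vehicle points in all 3 panels, and at 5 days the groups overlap in all 3.

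Outside liver Ugcg was not called. In marrow, by 1421269_at, it differed by 0.18 ± 0.11 at 1 day and 0.16 ± 0.10 at 5 days. At 5 days it was called with array weights (0.16, adjusted p = 0.0469 by limma) and with RNA quality as covariate (0.27, adjusted p = 0.0367). In spleen, by 1435133_at, it read 9.32, 9.27, 9.36 and 9.41 in baclofen at 1 day, against 9.42, 9.55, 9.72 and 9.55 in vehicle, just without overlap. The spleen differences were -0.22 ± 0.09 (adjusted p = 0.105 by limma) and, at 5 days, -0.24 ± 0.08 (adjusted p = 0.0854). The spleen probe sets 1421268_at and 1421269_at were lower as well, by 0.18 to 0.46 on the log2 scale over both times, and none passed the threshold. The remaining spleen probe set, 1439863_at, was on average higher under baclofen at both times and was not called.

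Of the genes of ceramide synthesis, Degs1 was lower in marrow. Probe set 1423346_at read 10.69, 10.77, 11.10 and 10.82 in baclofen marrow at 1 day, against 11.33, 11.20, 11.19 and 11.18 in vehicle, without overlap, a difference of -0.38 ± 0.11 (adjusted p = 0.0418 by limma). At 5 days it read 10.69 to 11.21 with a median of 10.86 in baclofen, against 11.40, 11.01, 11.10 and 11.28 in vehicle, with overlap, and the difference of -0.28 ± 0.10 was not called (adjusted p = 0.0644). The second probe set, 1423345_at, differed by -0.34 ± 0.12 and -0.32 ± 0.10 at the same times. The 1-day call was lost without any single sample except baclofen marrow 3, with an adjusted p of 0.0657 to 0.148. At 5 days a call appeared without vehicle sample 2 (0.0446) or baclofen sample 4 (0.0336) or 8 (0.0215). In liver Degs1 differed by -0.03 ± 0.10 at 1 day and 0.16 ± 0.08 at 5 days by 1423345_at, and by -0.01 ± 0.09 and 0.23 ± 0.07 by 1423346_at, none called. In spleen 1423346_at differed by -0.14 ± 0.08 and 0.02 ± 0.07. At 1 day 1423345_at differed there by -0.27 ± 0.09, not called (adjusted p = 0.0746 in a fit of all probe sets by limma). By both probe sets every baclofen spleen of 1 day lay below every vehicle spleen. At 5 days 1423345_at read 9.37 to 9.85 in baclofen spleens, against 9.61 to 9.89 in vehicle, and was not called.

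Sptlc2, the catalytic partner in serine palmitoyltransferase, was lower in liver after 5 doses. By 1460243_at it read 7.28 to 7.56 with a median of 7.44 in the baclofen livers, against 7.92, 7.88, 7.56 and 7.52 in vehicle, with overlap. The difference was -0.28 ± 0.08 (adjusted p = 0.0288 by limma). It was lost without vehicle liver 1 (0.104), vehicle liver 2 (0.112) or baclofen liver 3 (0.0519). Macrophage genes moved in this comparison too, 2 of 11 called lower with a median of -0.41 and group means of 7.71 in baclofen and 8.09 in vehicle. Of the mature neutrophil genes 1 of 2 tested was called lower, with a median of -2.04, and of the erythroid genes 1 of 7, with a median of -0.02. The 9 neutrophil genes with a probe set averaged 5.01 in baclofen and 5.52 in vehicle. The part of these cells was not tested. The other liver probe sets differed by -0.09 ± 0.14 (1435937_at) and -0.08 ± 0.07 (1454257_at).

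The Sptlc2 probe sets disagreed in spleen after 1 dose. There 1435937_at read 7.25, 7.34, 7.56 and 7.34 in baclofen, against 7.57, 8.03, 7.94 and 7.72 in vehicle, a difference of -0.45 ± 0.09 (adjusted p = 0.00419 with every probe set apart by limma). In the same arrays 1460243_at was higher in every baclofen sample than in every vehicle sample, by 0.18 ± 0.07, though not called (adjusted p = 0.102). In marrow at 1 day 1435937_at was again lower, at 8.24, 8.51, 8.49 and 8.19 in baclofen against 8.82, 8.87, 8.86 and 8.79 in vehicle, by -0.48 ± 0.12 (adjusted p = 0.0225). The other marrow probe sets differed there by -0.06 ± 0.10 and -0.25 ± 0.09, neither called. At 5 days 1435937_at differed by -0.02 ± 0.08 in spleen and -0.32 ± 0.11 in marrow (adjusted p = 0.0647). The direction of Sptlc2 in spleen therefore rests on which probe set stands for the gene.

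Sptlc1, the other core subunit, had the smallest spread of differences. By 1422690_at, over the 6 comparisons, they ran from -0.08 to 0.04, with SEs of 0.05 to 0.07 and a smallest adjusted p of 0.406. In a fit of all probe sets 1422691_at differed by 0.01 to 0.20, 1436726_s_at by -0.12 to 0.12 and 1436727_x_at by -0.08 to 0.09, none called. Its signal was 8.39 to 8.67 over 19 liver arrays, 9.35 to 9.67 over 20 marrow arrays and 8.96 to 9.28 over 20 spleen arrays.

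The lysosomal enzymes were not called in any comparison. Smpd1, by 1448621_a_at, differed by -0.13 to 0.04, with a smallest adjusted p of 0.334 in liver at 5 days, where it read 9.41 to 9.97 in baclofen, against 9.54 to 9.89 in vehicle. The other Smpd1 probe set, 1447874_x_at, differed by -0.16 to 0.08 in a fit of all probe sets and was not called. Asah1, with its 1 probe set, 1416735_at, differed by -0.13 to 0.17. Its largest difference was in spleen at 5 days, where it read 9.93 to 10.66 with a median of 10.19 in baclofen, against 9.91 to 10.14 with a median of 10.06 in vehicle (adjusted p = 0.238 by limma). That a difference misses the threshold does not show that the groups were alike.

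Set directly against each other in a fit of all 12 groups, the baclofen differences of 2 tissues parted for 3 members. These tests rest on the same baclofen comparisons. The fit took the arrays of different tissues as independent. The sample titles do not say whether the tissues came from the same mice, and the SEs and p-values make no allowance for that. Ugcg differed between liver and marrow at 1 day by -0.74 ± 0.17, liver minus marrow, with 1421268_at in both (adjusted p = 0.00763 by limma; 2.28% of all genes called). Degs1 differed between the same tissues at 5 days by 0.51 ± 0.12 with 1423346_at, which differed by 0.23 in liver and -0.28 in marrow (adjusted p = 0.00273; 7.83% called). Sptlc2 differed between liver and spleen at 5 days by -0.43 ± 0.11, liver minus spleen, with 1460243_at (adjusted p = 0.00740 by limma, with 11.7% called). The other Sptlc2 probe sets were not tested between tissues. By 1435937_at the 5-day difference was -0.09 in liver, near its spleen value given above. The smaller Sgms1 difference in spleen was not separated from the others: marrow minus spleen was 0.43 ± 0.15 at 1 day (adjusted p = 0.0961; 1.91% called) and 0.10 ± 0.13 at 5 days (adjusted p = 0.678; 4.48% called), and liver minus spleen was 0.26 ± 0.15 at 1 day (adjusted p = 0.307; 6.51% called) and 0.23 ± 0.13 at 5 days (adjusted p = 0.236). Sgms2, liver minus marrow at 5 days, reached 0.84 ± 0.28 (adjusted p = 0.0537).

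Between the times no member's baclofen difference was called as changed in liver (0 of 8), marrow (0 of 8) or spleen (0 of 7), where 0.0183%, 0% and 0% of all genes were called by limma. At an unadjusted p under 0.05 there were 2 members in liver, Ugcg and Sptlc2, 1 in marrow, Sgms2, and 0 in spleen. Sgms1 changed by 0.01 ± 0.14 in liver, -0.28 ± 0.15 in marrow and 0.05 ± 0.11 in spleen, 5 day minus 1 day. The vehicle groups of the 2 times likewise gave 0 calls among the members, and 0% among all genes. At an unadjusted p under 0.05 there was 1 member, Asah1 in liver at -0.19 ± 0.09.

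Tissue levels are given from the vehicle samples of both times (n = 7 liver, 8 marrow and 8 spleen). They are given first as log2 intensity and then relative to each array's median, by the probe set brightest over all arrays. Sgms1, by 1436499_at, was lowest in liver at 7.28 ± 0.15 (SD), then 8.84 ± 0.19 in marrow and 9.23 ± 0.13 in spleen. Relative to the median the order was the same, at 2.12, 2.62 and 2.99. Its other probe sets put marrow above spleen. The 1-day vehicle means were 8.28 in marrow and 8.04 in spleen by 1426575_at, and 8.72 and 8.63 by 1426576_at. By 1442079_at the 1-day vehicle samples read 8.595 to 8.825 in marrow and 8.147 to 8.383 in spleen. Sgms2 was highest in marrow at 10.6 ± 0.3, then 8.90 ± 0.50 in liver and 5.58 ± 0.55 in spleen, and relative to the median 4.38, 3.74 and -0.66. The gap between spleen and the other tissues was many times the SD on either scale. By the other Sgms2 probe set, 1429029_at, the 1-day vehicle means were 7.70 in marrow and 7.06 in liver. The log2 medians of all marrow and liver arrays averaged 6.23 and 5.15, so relative to the median this probe set was higher in liver. Ugcg, by 1421268_at, was 7.42 ± 0.08 in liver, 8.66 ± 0.19 in marrow and 8.74 ± 0.08 in spleen. Relative to the median it was 2.26, 2.45 and 2.51, and marrow and spleen differed by less than the SD in marrow. Another Ugcg probe set, 1435133_at, set the tissues further apart. Its 1-day vehicle samples read 5.76 to 6.25 in liver, 8.72 to 8.99 in marrow and 9.42 to 9.72 in spleen.

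Levels of the ceramide-making genes depended on the scale. Sptlc1 was 8.56 ± 0.07 in liver, 9.53 ± 0.09 in marrow and 9.11 ± 0.09 in spleen, but 3.40, 3.31 and 2.88 relative to the median, where liver and marrow differed by no more than the SD in marrow. Sptlc2 was 7.65 ± 0.20, 9.67 ± 0.12 and 8.70 ± 0.10 in the same order of tissues, and 2.49, 3.45 and 2.46 relative to the median, so that marrow was highest on both scales. Degs1 was 9.87 ± 0.15, 11.21 ± 0.13 and 10.01 ± 0.08, and 4.71, 4.99 and 3.77 relative to the median. By these probe sets Smpd1 alone among the 8 was highest in liver on both scales, at 9.72 ± 0.13, 9.18 ± 0.07 and 8.69 ± 0.15, or 4.56, 2.96 and 2.45. By its other probe set, 1447874_x_at, log2 intensity was higher in marrow than in liver, with 1-day vehicle means of 7.07 and 6.68. Asah1 was highest in marrow, at 8.69 ± 0.15, 10.7 ± 0.1 and 10.1 ± 0.1, or 3.53, 4.51 and 3.83.

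The wider pathway was followed through 59 other sphingolipid genes, of which 54 have a probe set and 34 were tested in liver and 41 each in marrow and spleen. In liver at 1 day 0 rose and 2 of 34 fell. B4galt5, a lactosylceramide synthase that acts just after Ugcg, averaged 6.91 in baclofen and 8.04 in vehicle, a difference of -1.13 ± 0.22 without overlap (adjusted p = 0.00612 by limma). Cert1, the protein that carries ceramide to the Golgi, averaged 8.93 in baclofen and 9.35 in vehicle, a difference of -0.41 ± 0.10 (adjusted p = 0.0244). In liver at 5 days 2 of 34 rose and 3 fell. St3gal5, which makes ganglioside GM3 from lactosylceramide, averaged 10.4 in baclofen and 9.15 in vehicle, a difference of 1.27 ± 0.23 without overlap (adjusted p = 0.00237). Vehicle liver 1 read 7.91, against 9.36 to 9.76 in the other vehicle livers. At 1 day St3gal5 averaged 10.6 in baclofen and 9.58 in vehicle, also without overlap, and was not called. At 5 days the sphingosine kinase gene Sphk2 fell by 0.39, the sphingosine 1-phosphate exporter gene Spns2 by 0.55 and the receptor gene S1pr1 by 0.43 on the log2 scale.

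In marrow 1 of 41 rose at both times, the sphingosine kinase gene Sphk1, by 0.44 ± 0.12 at 1 day (adjusted p = 0.0266 by limma) and 0.54 ± 0.10 at 5 days (adjusted p = 0.00513). At 1 day 4 fell, among them Gba2, a glucosylceramidase outside the lysosome (by 0.30), Ormdl1, an inhibitor of serine palmitoyltransferase (by 0.20), and S1pr4, a sphingosine 1-phosphate receptor of blood cells (by 0.45). At 5 days 5 fell, among them B4galt6 and B4galt5, both lactosylceramide synthases (by 0.71 and 0.43), and the receptor gene S1pr2 (by 0.29). In spleen at 1 day 3 of 41 rose and 2 fell. B4galnt1, which makes complex gangliosides, averaged 10.6 in baclofen and 9.94 in vehicle, a difference of 0.69 ± 0.14 without overlap (adjusted p = 0.00313). Kdsr, the ketoreductase after serine palmitoyltransferase, rose by 0.36, Cerk, the ceramide kinase, by 0.34, and Ormdl1 fell by 0.46. In spleen at 5 days 3 of 41 rose and 0 fell: Asah2, the neutral ceramidase, by 0.31, Kdsr by 0.41 and the ceramidase gene Acer2 by 0.41. The median difference of the tested genes of this list lay between -0.06 and 0.03 in all 6 comparisons. The list was drawn up with earlier results known, and the shares called, 5.88% to 14.7% of those tested, are set beside the shares over all genes given above without further reading.

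The genes that tracked Sgms1 most closely lay outside the sphingolipid pathway. Over the 59 arrays, with each tissue's mean subtracted and among 9044 other genes tested in all 3 tissues, the highest Pearson correlations with Sgms1 were those of Fbxo31 (0.797), Per1 (0.782), Pnpla2 (0.765), Ddit4 (0.759) and Dusp1 (0.753). Fbxo31 encodes an F-box protein, Per1 a clock repressor, Pnpla2 the adipose triglyceride lipase, Ddit4 an mTORC1 inhibitor and Dusp1 a MAP kinase phosphatase. The lowest were Trmt1l (-0.726) and Ncbp2 (-0.699). Sgms2 was not among the genes compared, as it was not tested in spleen. The other members stood far from these: Asah1 reached 0.198, Ugcg 0.02, Sptlc2 -0.01, Sptlc1 -0.03, Smpd1 -0.04 and Degs1 -0.21. Within single tissues the values of Ugcg were -0.14 in liver, 0.65 in marrow and -0.64 in spleen, those of Degs1 0.55, -0.62 and -0.30, and those of Sptlc2 -0.20, -0.11 and 0.61. Those of Sptlc1, Smpd1 and Asah1 lay between -0.36 and 0.31. The arrays share their treatment groups, so these correlations describe joint movement over the groups and are given with no p.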

How the data were processed

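RNA of 59 samples was measured on Affymetrix arrays, 1 per sample. The deposited values are signal intensity on a linear scale (5.25 to 43115), made by the authors with RMA, which the submitters' processing notes name without a version beside limma. Batches and dates are not given in the sources used here, and the number of arrays limits the precision.

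Intensity was transformed to log2 with no further normalization. Groups follow the titles of the samples. Per tissue, limma (version 3.58.1, R 4.3.3; lmFit and eBayes) was fitted to 4 groups sharing 1 spread per gene, on the probe set with the highest mean in that tissue, for genes at or above the 40th percentile of brightness. This left 10916 of 18193 genes. Every probe set was also fitted apart (20967 per tissue). Tissue differences came from 1 fit of all 12 groups, with no term for tissues that may come from the same mouse. Calls need a Benjamini-Hochberg adjusted p under 0.05 over all features tested. The test was run on simulated data first. The labels do not say that replicates are separate animals, so each p-value reflects sample spread that may be technical.

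All 8 genes and their probe sets are named; of 59 other sphingolipid genes, called ones were named, up to 4 per comparison by adjusted p; for the gene with most calls, the 5 highest and 2 lowest correlations. The members and lists were chosen with earlier results of these data known. Other settings varied the brightness filter, the choice of probe set, normalization, array weights, RNA quality as covariate, the threshold, the groups in the fit, the replicate block and the samples left out.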

Additional observations from a re-analysis of the deposited data

Results flagged for a closer look

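In 7 of 88 groups of 4 to 8 samples, 1 sample stood apart from the rest of its group by a gap large against the group's range; chance alone gives about 1 in 20. In liver, Ugcg read 8.24 in baclofen sample 8 at 5 days, against 7.30 to 7.72 in the other baclofen samples. In marrow at 5 days, baclofen sample 8 stood apart for Sptlc2 (9.85, others 9.43 to 9.56) and for Asah1 (11.04, others 10.69 to 10.83), and vehicle sample 1 for Sptlc2 (9.87, others 9.60 to 9.63). In marrow at 1 day, vehicle sample 1 stood apart for Degs1 (11.33, others 11.18 to 11.20) and for Asah1, where it was low (10.44, others 10.76 to 10.80), and vehicle sample 2 for Sgms2 (10.87, others 10.29 to 10.35). That vehicle sample 1 also had the highest 3′ minus 5′ control value of all marrow arrays, 0.24, and the lowest Sgms1 value, 8.52. Leaving out single samples brought the Sgms1 difference of marrow at 1 day to 0.55 at the lowest, still called. The part of RNA quality was not tested.

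In a fit of 12 groups, tests built from the same baclofen comparisons that were known when the genes were chosen separated the differences of 2 tissues for 3 genes (limma). Ugcg, liver minus marrow at 1 day, gave -0.74 (2.28% of all genes called), with all 4 liver baclofen samples below vehicle. Degs1, liver minus marrow at 5 days, gave 0.51 (7.83% called), and Sptlc2, liver minus spleen at 5 days, gave -0.43 (11.7% called). The Sptlc2 value is that of 1460243_at, and its other probe sets were not tested between tissues. The fit took the arrays of different tissues as independent, and the titles do not say whether they share mice.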

How the results depend on the processing

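Of 636 values of single genes under other settings that kept all samples or left out only those with foreign transcripts, 580 stayed on their side of the threshold, 49 lost the call, 5 gained one and 2 called values turned sign. Of the 580, 20 uncalled values turned sign, with reported differences of at most 0.18, that of Sptlc2 in spleen at 1 day (-0.06 with the mean of probe sets). Leaving out single samples left 412 on their side, 16 of them uncalled values that turned sign, lost the call in 36 and gained it in 4. The called values that turned are Sgms1 (-0.34) and Ugcg (0.15) in liver at 1 day with labels from the source field, where 0 genes were called in all. The counts of called members, 2 in each liver and marrow comparison and 1 in each spleen comparison, moved as follows. In liver at 1 day 1 was called with no filter, with median centring, with only the groups compared and with RNA quality as covariate (Sgms1 lost its call with only the groups compared, Ugcg in the others), and 0 with the mean of probe sets, an adjusted p under 0.01, a 1.5-fold minimum or the source field. In liver at 5 days 1 was called with the mean of probe sets, median centring, only the groups compared, array weights or 0.01, and 0 at 1.5-fold. In marrow at 1 day 1 was called with no filter, the mean of probe sets, only the groups compared, the covariate, 0.01 or 1.5-fold. The count there was 3 at most over these settings. In marrow at 5 days 1 was called with no filter, 4 with array weights (Sgms1, Sgms2, Degs1 and Ugcg, where 40.3% of all genes were called) and 0 at 0.01 or 1.5-fold. Without the libraries with foreign transcripts 3 were called in marrow at 5 days, Degs1 among them (-0.28, adjusted p = 0.0442 by limma). No marrow of that time was left out there, so the difference was the same and only the shared spread changed. In spleen at 1 day 2 were called with every probe set apart or quantile normalization, and 0 with no filter, the mean of probe sets, median centring, only the groups compared, 0.01, 1.5-fold or without the libraries with foreign transcripts. In spleen at 5 days 0 were called with the mean of probe sets, the covariate, 0.01, 1.5-fold or without those libraries. With no filter 1 member, against 0, differed between liver and spleen at 1 day. Leaving out single samples gave 0 to 2 members in liver at 1 day, 1 to 2 in liver at 5 days and marrow at 1 day, 0 to 3 in marrow at 5 days and 0 to 1 in spleen at each time. It gave 0 to 1 for marrow minus spleen at 5 days, 1 to 2 for liver minus marrow and liver minus spleen at 5 days, 1 for liver minus marrow at 1 day and 0 for the other differences, the changes between times and the vehicle times. The leave-one-out and block fits of those results were chosen after seeing the data. Over all settings, all genes called ran from 0 to 518 in liver at 1 day (291 as reported), 231 to 1545 in liver at 5 days (1159), 97 to 2416 and 2 to 4404 in marrow (803 and 1100), and 285 to 3651 and 2 to 781 in spleen (1697 and 484). The causes were not tested.

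With the replicate number as a block the counts of members were 1 in liver at 1 day, 1 in liver at 5 days, 1 in marrow at 1 day, 0 in marrow at 5 days and 0 in spleen at each time. Of all genes 1.27%, 2.12%, 3.78%, 0.0183%, 7.98% and 0.0183% were called in liver, marrow and spleen at 1 and 5 days with it, so the counts of 0 at 5 days say nothing about the members. The changes between times gave 0 in each tissue. Within a tissue and time the numbers gave no sign of pairing baclofen with vehicle samples. The deviations of same-numbered samples from their group means correlated at -0.46 to 0.27 over 23 pairs. Of 23 vehicle samples 4 correlated best with their own number. Whether equal numbers in different tissues mark the same mouse was not tested.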
